A study of Mus musculus with 10 samples.

Results

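The genes described here are the DNA replication machinery, 41 genes for origin recognition, the MCM and GINS helicase proteins, the replicative polymerases, the sliding clamp and nucleotide supply. Members were the probe sets of the array whose only platform gene symbol was one of the 41. All 41 genes were found, on 42 of 35556 probe sets, among 19938 genes with a value. The samples were melanoma tumours of male mice, 5 from exercised animals and 5 from non-exercised animals, with total RNA from each tumour on 1 whole-transcript array. The series is titled for voluntary exercise and natural killer cells in tumours, and the comparison asks how transcript levels in the tumour differ with exercise. The sources used here do not give the tumour line, mouse strain, age or length of exercise. Nothing in the labels says that the arrays of a group come from separate animals. The p-values therefore cover only the spread among these samples, which may be technical.

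DNA replication begins at origins, which the origin recognition complex marks and on which Cdc6 and Cdt1 load the ring-shaped MCM2-7 helicase while the cell is in G1. In S phase Cdc45 and the GINS complex activate the helicase, polymerase alpha-primase lays down primers, and polymerases delta and epsilon extend them with the help of the PCNA clamp. Many of these genes are transcribed before S phase by E2F factors, and their transcripts are widely read as signs of proliferation in tumours.

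Of the 41 replication genes, 3 were higher in the exercise tumours (Fen1, Pold1 and Mcm6), 2 were lower (Cdt1 and Orc3), and 36 did not pass the test. The largest difference was that of Cdt1, which loads the helicase onto origins and was 1.53-fold lower. Fen1, the nuclease that trims Okazaki fragments, was 1.40-fold higher, and Pold1, the catalytic subunit of polymerase delta, was 1.25-fold higher. The test was limma's moderated test on quantile-normalised log2 values with Benjamini-Hochberg adjustment over all genes, at an adjusted p under 0.05. Of all 19938 genes, 17.0% passed it, 6.35% higher and 10.6% lower, against 12.2% of the members, 7.32% higher and 4.88% lower. The share of members called was thus below that of all genes in total and for lower calls, and above it for higher calls. It changed with the scaling of the arrays, to 9.76% with the deposited values and 19.5% with median centring. No test of these differences was made. The members were also brighter than most genes, with a median level at percentile 85.8. The 5 calls did not hold with a leukocyte marker score as a covariate. That fit gave changes of 0.51 for Fen1, 0.35 for Pold1, 0.33 for Mcm6, -0.47 for Cdt1 and -0.10 for Orc3. Without the covariate they were 0.49, 0.32, 0.22, -0.61 and -0.20. Every exercise array had a higher score than every non-exercise array, so that fit has little room to tell the score and exercise apart. The calls of Mcm6 and Orc3 also depended on single arrays, as given with each gene. The median change over the 41 members was 0.00 on the log2 scale, with 21 changes above 0 and 20 below, and the median over all genes was -0.02. The median size of a change, regardless of sign, was 0.06 for the members and 0.10 for all genes. Changes are exercise minus non-exercise in log2 units throughout, ± after a group mean is the SD over 5 arrays, and SE is the standard error of a change. As RNA came from whole tumours, fewer cells of a type and less RNA per cell cannot be told apart.

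**Figure D1:**
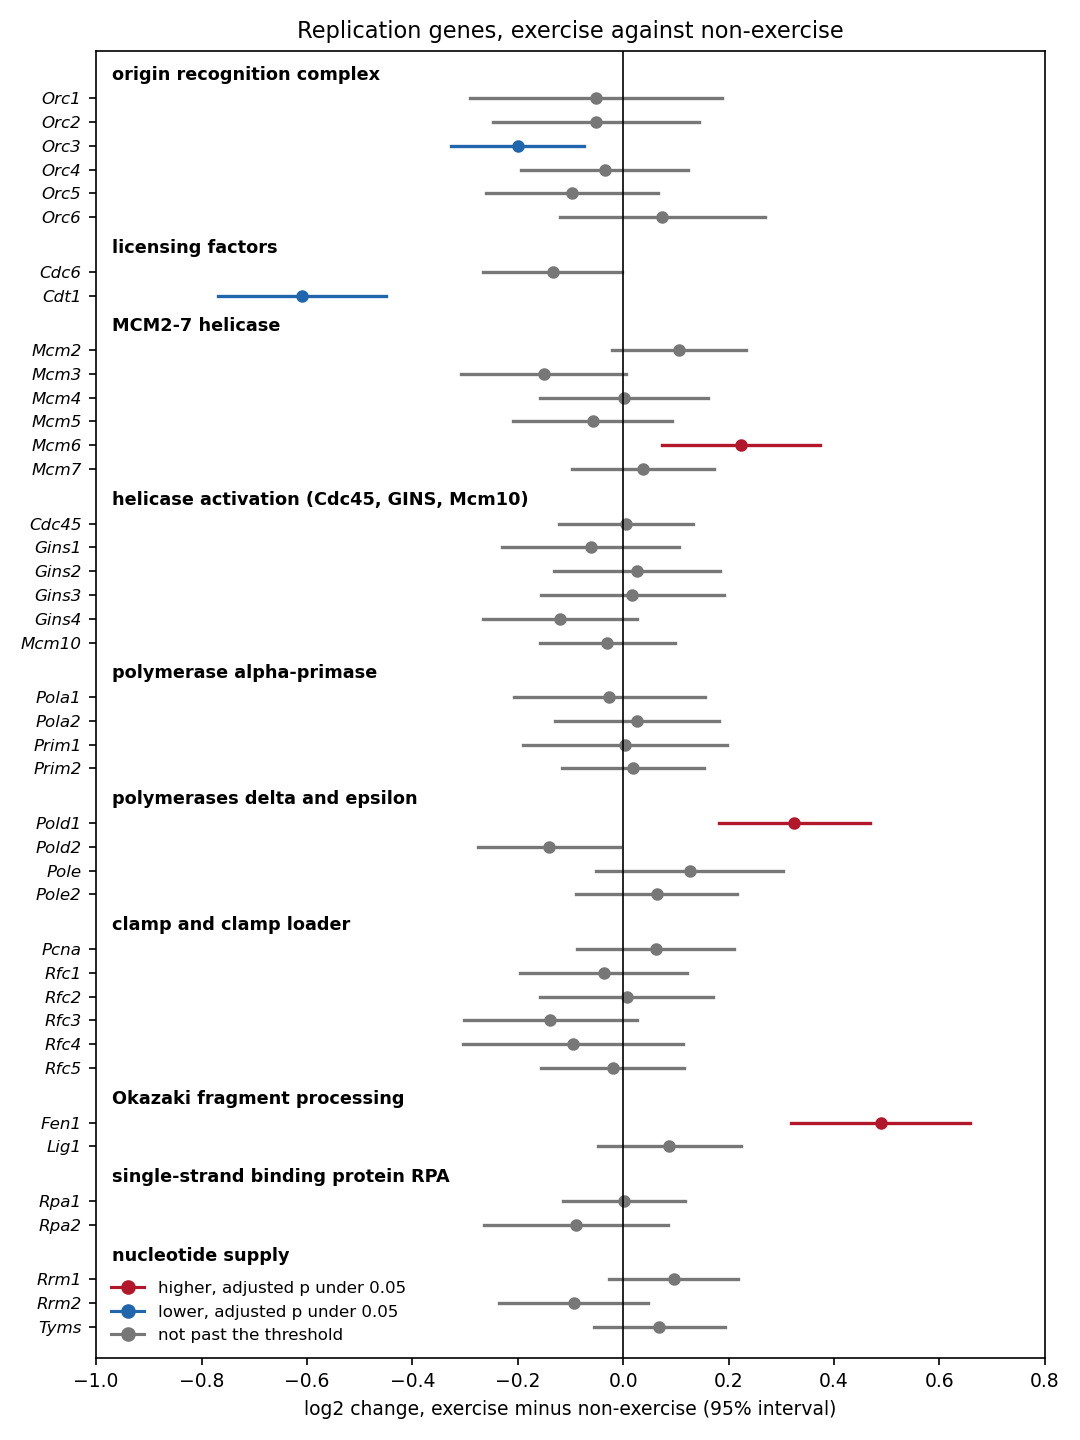
Log2 change (exercise minus non-exercise, x axis) of each of the 41 replication genes with its 95% confidence interval, grouped by role. Filled red and blue points passed limma's adjusted p threshold of 0.05 in the higher and lower direction. Cdt1 lies farthest from 0 at -0.61 and Fen1 at 0.49, while the 36 genes that did not pass lie between -0.15 and 0.13.

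Promoter sequences were compared because many replication genes are known targets of E2F factors and the rule for members used no sequence. In the RefSeq promoter table of build GRCm38.p6, which covers 250 bases before to 50 after each start on the gene's strand, 34 of the 41 members were matched, with 42 promoters. One of the E2F-type strings TTTGGCGC, TTTCCCGC, TTTCGCGC and TTTGCCGC, searched on both strands, was found for 14 of these 34 genes (41.2%). The share was 2.60% of the 27025 genes of the table and 3.48% of the 15614 measured genes with a promoter. TTTCCCGC occurred in 7 members, TTTGGCGC and TTTCGCGC in 6 each, and TTTGCCGC in 0; TTTGGCGC on one strand overlaps TTTCGCGC on the other in Mcm5 and Mcm6. CCAAT, the core of the NF-Y motif, was held by 22 of 34 members (64.7%), 41.1% of all genes of the table and 41.7% of measured genes. The median GC content was 59.7% for the members' promoters, 52.8% for all genes and 57.5% for measured genes, so part of the comparison is between promoters of unlike base composition. A match is a stretch of letters and not a measured binding site.

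Sites are shown for the 4 called members that hold an E2F-type string, with Mcm5, an uncalled member, and Fen1, a called member without one, for comparison. Sequences are RefSeq's, 5′ to 3′ on the gene's strand, and capitals mark the E2F-type string, or both overlapping strings in Mcm5 and in the upstream site of Mcm6. In the line for Mcm6, capitals also mark ATTGG, which is CCAAT read from the opposite strand.
Cdt1, chr8:122568037-122568064, plus strand, string at 33 to 40 after the start: gaactaccttTTTGGCGCcatggcgcaa
Orc3, chr4:34614966-34614993, minus strand, string at -41 to -34: catgcctcccTTTCCCGCacgccccgcc
Pold1, chr7:44548766-44548786, minus strand, string on the opposite strand at 40 to 47: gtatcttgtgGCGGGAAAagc
Mcm5, chr8:75109347-75109376, plus strand, strings at -153 to -142: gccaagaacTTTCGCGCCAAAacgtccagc
Mcm6, chr1:128359706-128359830, minus strand, the 125 bases before the start: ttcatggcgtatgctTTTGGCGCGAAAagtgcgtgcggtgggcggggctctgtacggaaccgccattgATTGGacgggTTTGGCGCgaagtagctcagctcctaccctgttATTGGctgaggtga
Fen1, chr19:10203922-10204046, minus strand, the 125 bases before 1 of its 2 starts: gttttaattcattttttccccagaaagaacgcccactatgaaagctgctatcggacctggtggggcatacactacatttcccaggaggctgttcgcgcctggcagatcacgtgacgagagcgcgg
Mcm6 thus held an E2F-type string at 2 places upstream of its start, and none of the 4 strings or CCAAT lay in the 125 bases shown for Fen1. Only exact matches were counted, and the Fen1 stretch holds gttcgcgc, which differs from TTTCGCGC in its first letter. Of the 5 called members, 2 that were higher (Mcm6 and Pold1) and 2 that were lower (Cdt1 and Orc3) held such a string. The median change was -0.04 over the 14 members with an E2F-type string and -0.01 over the 20 without.

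The origin recognition complex has 6 subunits, and 1 of them, Orc3, passed the test. Orc3, a core subunit of the ring that holds origin DNA, read 10.98, 11.02, 11.00, 10.91 and 10.94 in exercise arrays 300, 301, 306, 309 and 310, the order used for every gene. Its values in non-exercise arrays 326, 327, 329, 330 and 331 were 11.03, 11.19, 11.16, 11.33 and 11.13. Every exercise array lay below every non-exercise array, although the gap was small. The group means were 10.97 ± 0.05 and 11.17 ± 0.11, a change of -0.20 (SE 0.06, limma adjusted p = 0.0312). Orc1, which binds ATP and whose level varies over the cell cycle, had the largest p of the complex. It read 9.18, 9.02, 9.07, 8.81 and 9.06 in the exercise arrays and 9.14, 9.37, 9.18, 8.98 and 8.72 in the non-exercise arrays, and the groups overlapped widely (change -0.05, 95% interval -0.29 to 0.19, limma adjusted p = 0.843). Orc2, Orc4, Orc5 and Orc6 had changes of -0.05, -0.03, -0.10 and 0.07, with limma adjusted p of 0.469 or above, and did not pass. The call of Orc3 was lost when any of exercise arrays 300, 309 and 310 or non-exercise arrays 327, 329 and 330 was left out (limma adjusted p between 0.0236 and 0.0800 over all single omissions).

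Licensing of origins needs Cdc6 and Cdt1, and Cdt1 had the largest change of all members. Cdt1 lay at 11.18, 11.21, 11.32, 11.23 and 10.89 in the exercise arrays and at 11.75, 11.82, 11.76, 11.90 and 11.65 in the non-exercise arrays. All exercise arrays were below all non-exercise arrays, with a gap from 11.32 to 11.65 between the groups. The means were 11.17 ± 0.16 and 11.78 ± 0.09, a change of -0.61 (SE 0.07, 95% interval -0.77 to -0.45, limma adjusted p = 0.000218). Leaving out any 1 array kept the call, with changes between -0.65 and -0.54. Cdc6, the ATPase that recruits Cdt1 with the helicase, read 10.37, 10.22, 10.18, 10.17 and 10.25 in the exercise arrays and 10.35, 10.33, 10.37, 10.49 and 10.30 in the non-exercise arrays. Array 300 of the exercise group, at 10.37, lay within the non-exercise range and the other 4 exercise arrays lay below it. The change of -0.13 (SE 0.06) did not pass (limma adjusted p = 0.166). Both regulators of Cdt1 protein named here were chosen after the values of Cdt1 were seen. Gmnn, whose product geminin binds and blocks Cdt1, was at 9.41 ± 0.18 in the exercise and 9.54 ± 0.17 in the non-exercise tumours (change -0.12, limma adjusted p = 0.491). Dtl, the substrate receptor of the ligase that degrades Cdt1, was at 11.33 ± 0.11 and 11.36 ± 0.06 (change -0.03, limma adjusted p = 0.853), so neither passed.

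**Figure D2:**
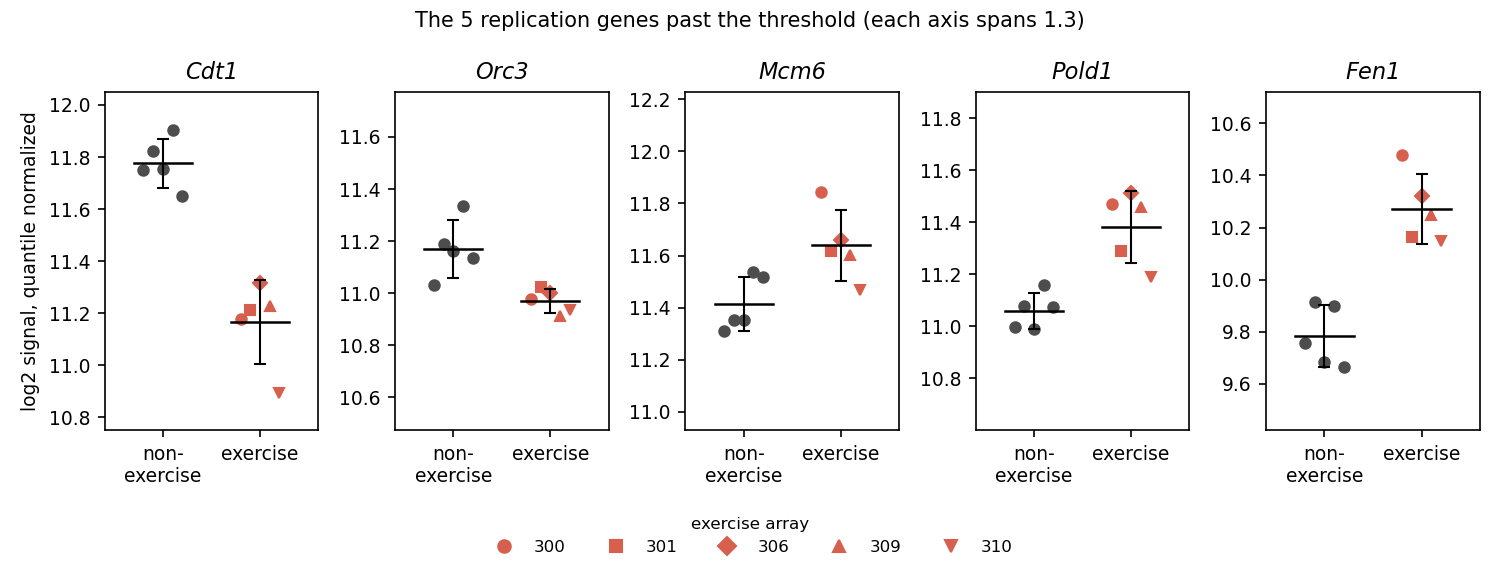
Quantile-normalised log2 level (y axis) of the 5 replication genes past the threshold in each exercise and non-exercise array, with the mean and SD of each group (n = 5). The groups do not overlap for Fen1, Pold1, Cdt1 and Orc3 and overlap for Mcm6; the Cdt1 means are 11.17 and 11.78.

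The MCM2-7 proteins form the hexameric helicase that opens DNA at the fork, and only Mcm6 of the 6 subunits passed. Mcm6 read 11.84, 11.62, 11.66, 11.60 and 11.47 in the exercise arrays and 11.31, 11.35, 11.35, 11.54 and 11.52 in the non-exercise arrays. The lowest exercise array, 310, lay below 2 non-exercise arrays (330 and 331), so the groups overlapped. The means were 11.64 ± 0.14 and 11.41 ± 0.10, a change of 0.22 (SE 0.07, limma adjusted p = 0.0407). Without any 1 of exercise arrays 300, 301, 306 and 309 or non-exercise arrays 326, 327 and 329 the call was lost, and the limma adjusted p ran from 0.0176 to 0.109 over single omissions. Mcm4, one of the subunits that carries the helicase's catalytic core, had the largest p. Its values of 12.09, 11.78, 11.86, 11.95 and 11.70 in the exercise arrays and 11.78, 11.93, 11.89, 12.01 and 11.73 in the non-exercise arrays covered nearly the same range, with means of 11.87 ± 0.15 and 11.87 ± 0.12. The 95% interval of its change, -0.16 to 0.16, leaves room for a change of up to 0.16 either way. The changes were -0.15 for Mcm3 (95% interval -0.31 to 0.01), 0.11 for Mcm2, -0.06 for Mcm5 and 0.04 for Mcm7, with limma adjusted p of 0.19 or above. Mcm2 passed when exercise array 310 was left out (change 0.16, limma adjusted p = 0.0273) and Mcm3 when array 300 was left out (change -0.21, limma adjusted p = 0.0460). The 6 subunits had values of both signs, and differences between their changes were not tested.

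The 6 genes that turn the loaded helicase on, Cdc45, Mcm10 and the 4 GINS genes, gave 0 calls, and 0 of them had an unadjusted limma p under 0.05. Gins4, a subunit of the GINS tetramer, had the smallest p of them. It lay at 11.83, 11.71, 11.69, 11.80 and 11.44 in the exercise arrays and 11.81, 11.86, 11.85, 11.85 and 11.70 in the non-exercise arrays, with exercise array 310 the lowest of all 10. The change was -0.12 (95% interval -0.27 to 0.03, limma adjusted p = 0.272). Cdc45, which joins MCM2-7 and GINS in the active helicase, read 11.34, 11.29, 11.26, 11.22 and 11.05 in the exercise against 11.16, 11.29, 11.26, 11.23 and 11.21 in the non-exercise arrays, with both means at 11.23. Its 95% interval of -0.12 to 0.13 around a change of 0.01 was among the narrower ones. Gins1, Gins2, Gins3 and Mcm10 had changes of -0.06, 0.03, 0.02 and -0.03.

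Polymerase alpha-primase, which starts each new strand with an RNA-DNA primer, also gave 0 calls among its 4 genes and 0 unadjusted limma p under 0.05. Pola2, its accessory subunit, read 10.95, 10.86, 11.08, 10.97 and 10.75 in the exercise arrays and 10.85, 11.07, 10.94, 10.88 and 10.75 in the non-exercise arrays, a change of 0.03 with the smallest p of the 4 (limma adjusted p = 0.879). Prim1, the catalytic primase subunit, read 10.99, 10.54, 10.51, 10.72 and 10.49 in the exercise against 10.58, 10.69, 10.74, 10.70 and 10.52 in the non-exercise arrays. Exercise array 300 was the highest of all 10 for Prim1, and the means of 10.65 ± 0.21 and 10.65 ± 0.09 were equal to 2 decimals (95% interval of the change -0.19 to 0.20). Pola1, the catalytic polymerase subunit, had a change of -0.03 and Prim2, the regulatory primase subunit, one of 0.02.

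The polymerases delta and epsilon copy the lagging and the leading strand, and of their 4 genes among the members Pold1 passed. Pold1 lay at 11.47, 11.29, 11.51, 11.46 and 11.19 in the exercise arrays and 11.00, 11.08, 10.99, 11.16 and 11.07 in the non-exercise arrays, so that all exercise arrays were above all non-exercise arrays. The means were 11.38 ± 0.14 and 11.06 ± 0.07, a change of 0.32 (SE 0.07, limma adjusted p = 0.00481). It was called under every single omission, with changes between 0.29 and 0.37. Pold2, the regulatory subunit bound to Pold1, had a change of the opposite sign, -0.14, which missed the threshold (limma adjusted p = 0.154). The Pold2 values of 12.59, 12.45, 12.62, 12.59 and 12.26 in the exercise against 12.61, 12.66, 12.64, 12.72 and 12.59 in the non-exercise arrays overlapped. Exercise array 310 was the lowest of all 10. Pole, the catalytic subunit of polymerase epsilon, had a change of 0.13 (95% interval -0.05 to 0.30, limma adjusted p = 0.361). Pole2, its accessory subunit, had the largest p of the 4 (limma adjusted p = 0.645). It read 11.29, 11.05, 11.11, 11.15 and 10.88 in the exercise arrays and 10.98, 11.08, 11.08, 11.10 and 10.92 in the non-exercise arrays, a change of 0.06.

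Okazaki fragments are finished by Fen1, which cuts the displaced flap, and Lig1, the ligase that seals the nick. Fen1 read 10.48, 10.16, 10.32, 10.25 and 10.15 in the exercise arrays and 9.76, 9.91, 9.68, 9.90 and 9.66 in the non-exercise arrays. The lowest exercise array, at 10.15, lay above the highest non-exercise array, at 9.91. The means were 10.27 ± 0.13 and 9.78 ± 0.12, a change of 0.49 (SE 0.08, 95% interval 0.32 to 0.66, limma adjusted p = 0.00109). The call held without any 1 array, with changes from 0.44 to 0.52. Lig1 read 11.11, 10.92, 11.10, 11.15 and 10.86 in the exercise against 10.97, 10.99, 10.88, 10.97 and 10.91 in the non-exercise arrays, with overlapping groups, a change of 0.09 and limma adjusted p of 0.421.

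Pcna, the sliding clamp that tethers polymerases to DNA, and the 5 subunits of replication factor C that load it gave 0 calls and 0 unadjusted limma p under 0.05. Pcna was at 12.52 ± 0.09 in the exercise and 12.45 ± 0.16 in the non-exercise tumours, a change of 0.06 (limma adjusted p = 0.651). It had 2 probe sets, with changes of 0.06 and 0.04, and since RefSeq names 2 Pcna pseudogenes its signal is uncertain where probes match them too. Rfc3, a small subunit of the loader, read 11.21, 10.95, 11.04, 11.09 and 10.78 in the exercise arrays and 11.13, 11.18, 11.24, 11.22 and 10.99 in the non-exercise arrays, the smallest p of the 6 (change -0.14, limma adjusted p = 0.259). Rfc2, another small subunit, read 10.47, 10.27, 10.57, 10.39 and 10.26 in the exercise against 10.45, 10.47, 10.37, 10.45 and 10.19 in the non-exercise arrays (change 0.01, limma adjusted p = 0.977). The changes were -0.10 for Rfc4, -0.04 for Rfc1, the large subunit, and -0.02 for Rfc5.

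The single-strand binding protein RPA coats unwound DNA, and its subunits Rpa1 and Rpa2 gave 0 calls and 0 unadjusted limma p under 0.05. Rpa1 read 11.91, 11.76, 11.93, 11.92 and 11.73 in the exercise arrays and 11.82, 11.85, 11.87, 11.93 and 11.78 in the non-exercise arrays, with a narrow 95% interval of -0.11 to 0.12 for its change. Rpa2 read 10.48, 10.36, 10.50, 10.47 and 10.18 in the exercise against 10.46, 10.68, 10.51, 10.49 and 10.28 in the non-exercise arrays, a change of -0.09 (limma adjusted p = 0.547). Among the genes of nucleotide supply, Rrm1 and Rrm2 encode ribonucleotide reductase and Tyms makes thymidylate, and 0 of the 3 passed or had an unadjusted limma p under 0.05. Rrm1 read 12.97, 12.81, 12.80, 12.83 and 12.67 in the exercise arrays and 12.69, 12.76, 12.71, 12.83 and 12.61 in the non-exercise arrays, with array 300 the highest (change 0.10, limma adjusted p = 0.3). Tyms read 11.44, 11.31, 11.42, 11.35 and 11.18 in the exercise against 11.28, 11.33, 11.25, 11.32 and 11.18 in the non-exercise arrays (change 0.07, limma adjusted p = 0.506), and 1 RefSeq pseudogene of Tyms makes its signal uncertain likewise. Rrm2 had a change of -0.09.

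By role, the median change was -0.05 for the 6 origin recognition genes, -0.37 for the 2 licensing factors, 0.02 for the 6 MCM2-7 genes and -0.01 for the 6 helicase activation genes. It was 0.01 for the 4 genes of polymerase alpha-primase, 0.09 for the 4 of polymerases delta and epsilon and 0.29 for the 2 of Okazaki fragment processing. The clamp and loader genes had -0.03, the RPA genes -0.04 and the nucleotide supply genes 0.07. The larger medians belong to pairs of genes and rest on Cdt1 and Fen1. Non-overlapping groups were found above for 2 members (Pold1 and Fen1) and below for 2 (Cdt1 and Orc3), shares of 4.88% each, where all genes gave 3.74% above and 8.33% below. Among the 36 uncalled members all 95% intervals lay within 0.5 of 0, and for 32 within 0.3. The intervals reached farthest at -0.31 for Mcm3 and 0.30 for Pole, so larger changes than these lie outside every uncalled member's interval. The median SE of a change was 0.07 for the members and 0.09 for all genes. All 41 also passed the filter on dim genes that served as an alternative, a mean level above the 25th percentile of genes.

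Although their group means were close, the members varied together from tumour to tumour. With each member centred on its mean over 10 arrays, the average over the 41 was 0.14, -0.02, 0.04, -0.01 and -0.17 in exercise arrays 300, 301, 306, 309 and 310. In non-exercise arrays 326, 327, 329, 330 and 331 it was -0.03, 0.07, 0.03, 0.06 and -0.10. The highest and the lowest array were both exercise tumours. The leukocyte score was 1.04 in array 310, the lowest, 1.02 in array 309, where the member average was -0.01, and 0.42 in array 300, the highest. Its part in these values was not tested. For 34 of 41 members the SD was larger in the exercise group, with a median SD of 0.14 against 0.09, while 63.7% of all genes had the larger SD there (medians 0.14 and 0.12). After centring on group means, the Pearson correlation between 2 members over 10 arrays had a median of 0.64, and 789 of 820 pairs were positive. For all pairs of genes the median was 0.02, and for pairs of mitotic genes 0.50. It was 0.57 for members paired with mitotic genes and 0.41 for pairs within a wider replication and S-phase list. Leaving out exercise arrays 300 and 310 lowered the medians to 0.46 for the members, with 716 of 820 pairs positive, and 0.14 for mitotic genes. For members with mitotic genes the median was then 0.29, and within the wider list 0.26. The group means used for centring still included the arrays left out, so a difference between groups can enter these values. The arrays share their normalisation, so these correlations are descriptions. Prim2 followed the mean of the other members most closely (Pearson 0.97), then Pole2 (0.96), Rfc4 and Tyms (0.95 each). The lowest values were those of Orc2 (0.16), Orc4 (0.34), Orc3 (0.42) and Orc1 (0.44), while the other origin recognition subunits Orc5 and Orc6 had 0.71 and 0.89.

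**Figure D3:**
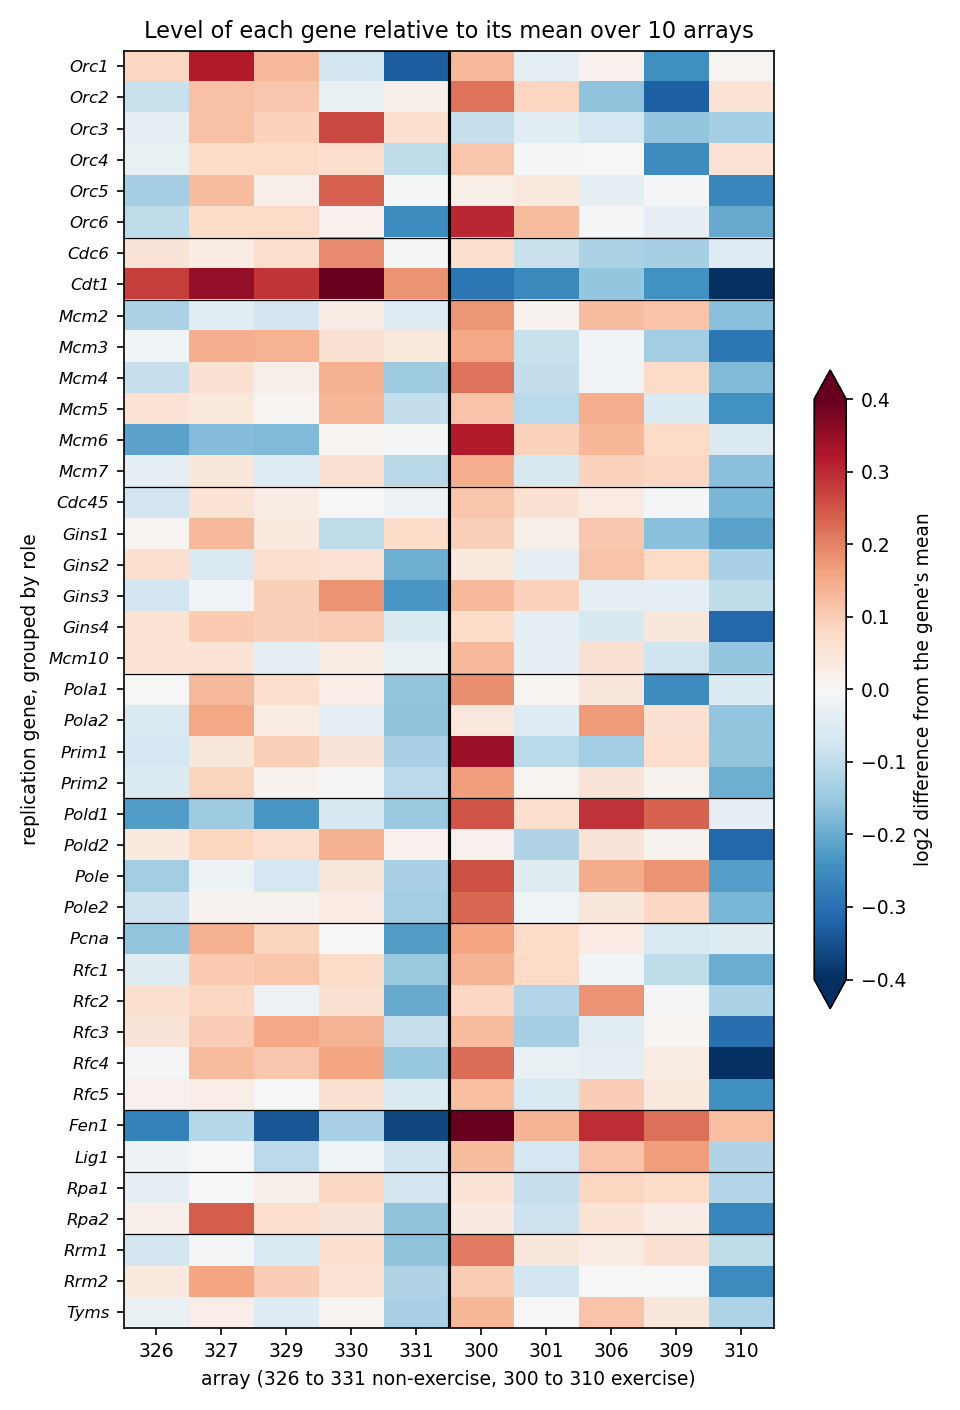
Log2 level of each of the 41 replication genes (rows, by role) in each array (columns, non-exercise then exercise), as the difference from that gene's mean over 10 arrays. Array 300 is mostly above and array 310 mostly below the gene means, and the Cdt1 row is the one with the strongest split between groups.

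Measured against the 36 uncalled members of the same array, the called genes separated further or less. Cdt1 minus the mean of the uncalled members was -0.14, 0.06, 0.10, 0.07 and -0.11 in the exercise arrays and 0.60, 0.57, 0.54, 0.67 and 0.58 in the non-exercise arrays. The exercise and non-exercise values lay 0.59 apart on average without overlap, with no array standing out. In the same way Fen1 differed by 0.51 and Pold1 by 0.34, both without overlap. Mcm6 differed by 0.24 and Orc3 by -0.18, both with overlap. These differences are descriptions, as the 36 genes were picked by the same fit.

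**Figure D4:**
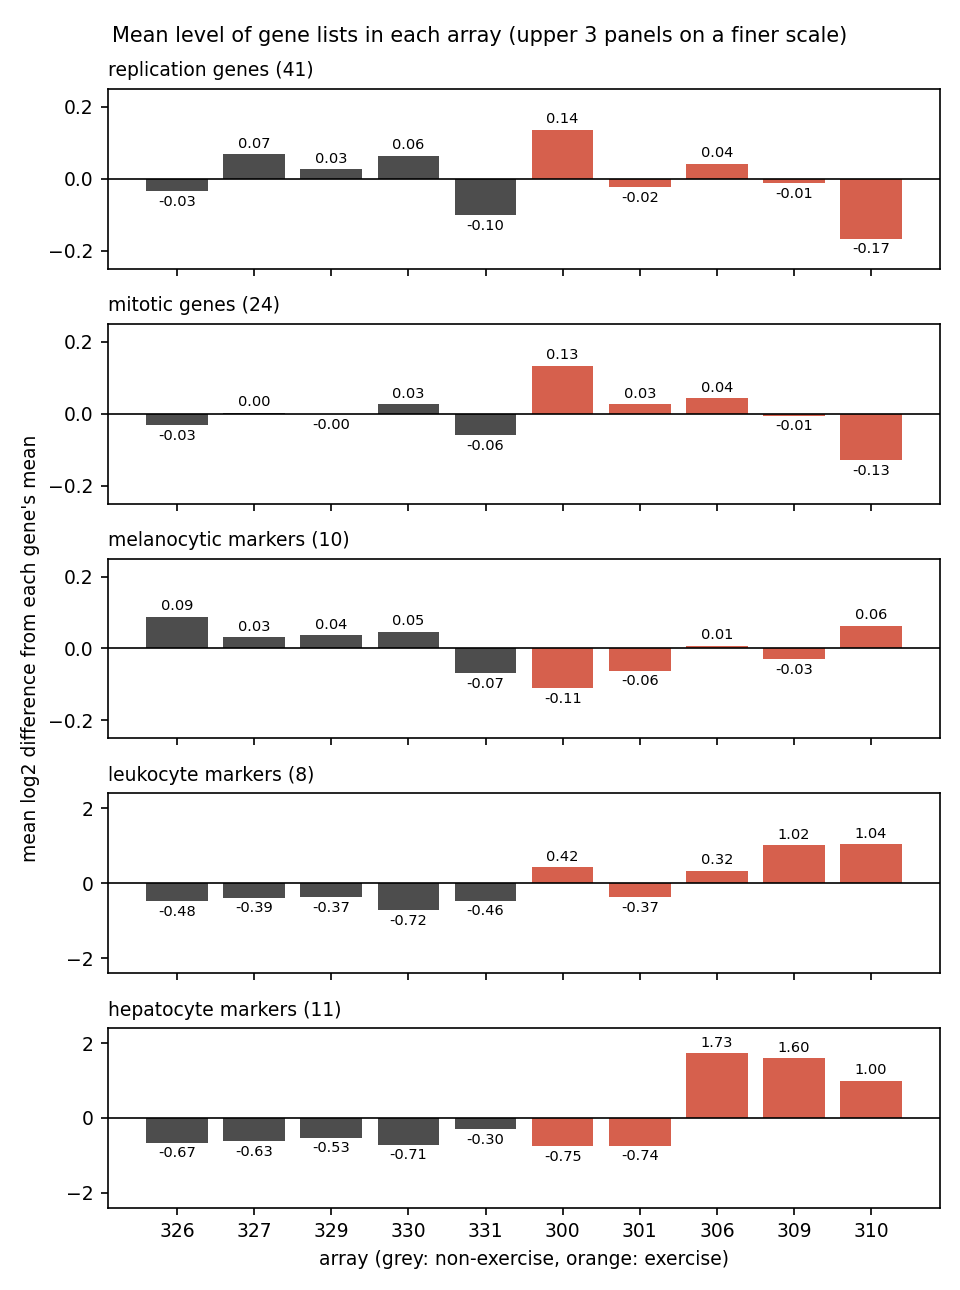
Mean log2 difference from each gene's mean over 10 arrays (y axis) for the replication genes, mitotic genes, and melanocytic, leukocyte and hepatocyte markers in each array. Replication and mitotic genes are lowest in array 310 at -0.17 and -0.13, where leukocyte markers are highest at 1.04; the upper 3 panels have a finer scale than the lower 2.

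Markers of some other cell types differed between the groups, mostly those of leukocytes, macrophages and fibroblasts. The part of other cell types in the changes of Cdt1, Fen1, Pold1, Mcm6 and Orc3 was not tested beyond the fits given here. The melanocytic markers fitted the tissue label, with Mlana at 13.15 ± 0.06 and 13.14 ± 0.12 a list level of -0.11 to 0.06 in the exercise and -0.07 to 0.09 in the non-exercise arrays, and 0 of 10 past the threshold (2 lower at an unadjusted limma p under 0.05). Of 8 leukocyte markers 7 were higher in exercise, and their mean level ran from -0.37 to 1.04 in the exercise and from -0.72 to -0.37 in the non-exercise arrays. Ptprc, the leukocyte common antigen, changed by 1.16 (limma adjusted p = 0.00921). Hepatocyte markers were high in exercise arrays 306, 309 and 310 alone, at 0.998 to 1.73 against -0.75 to -0.30 in the other 7 arrays. Over the groups 1 of 11 was higher (9 at an unadjusted limma p under 0.05), with Alb at 10.51 ± 2.98 and 7.90 ± 0.91. All 8 macrophage markers and 5 of 8 fibroblast markers were higher and 1 fibroblast marker was lower. The macrophage list ran from -0.17 to 1.02 in the exercise and -0.85 to -0.32 in the non-exercise arrays, and the fibroblast list from -0.21 to 0.95 and -0.74 to -0.04. Col1a1, a fibrillar collagen gene, changed by 0.99 (limma adjusted p = 0.00791). For NK and T cells 3 of 8 markers were higher, for endothelium 1 of 8 (Pecam1 0.30, limma adjusted p = 0.218) and for adipocytes 1 of 7 (Adipoq 0.83, limma adjusted p = 0.269). At an unadjusted limma p under 0.05 these counts were 6, 2 and 1. Skeletal muscle and keratinocyte markers gave 0 of 8 each, also at an unadjusted limma p under 0.05 (Acta1 0.12, Krt5 0.00), and 2 of 3 erythroid markers were lower.

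With the leukocyte score as a covariate, 0.938% of all genes and 0 of the members passed limma's adjusted p of 0.05. At an unadjusted p under 0.05 that fit had 3 members higher (Mcm6, Pold1 and Fen1) and 1 lower (Cdt1). Its changes were -0.47 for Cdt1 (limma adjusted p = 0.0652), 0.51 for Fen1 (0.0760), 0.35 for Pold1 (0.153), 0.33 for Mcm6 (0.192) and -0.10 for Orc3 (0.692). Every exercise array had a higher score than every non-exercise array, so the fit has little room to tell the score and exercise apart. Exercise array 301 was higher only barely, at -0.3726 against -0.3734 in non-exercise array 329, and lay near the non-exercise level. With the hepatocyte score as a covariate Orc3 was no longer called (-0.17, limma adjusted p = 0.166), and with the melanocytic score Mcm6 was not (0.15, limma adjusted p = 0.136). Leaving out the 3 arrays with high hepatocyte markers left only arrays 300 and 301 in the exercise group. Cdt1 then changed by -0.58 (limma adjusted p = 0.000512), Fen1 by 0.54 (0.00568), Pold1 by 0.32 (0.0125) and Mcm6 by 0.32 (0.0243). Orc3, at -0.17 (limma adjusted p = 0.190), was no longer called. In that fit 7.32% of members were higher and 2.44% lower, against 3.74% and 8.06% of all genes.

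The scaling of the arrays changed the members' split. With the values as deposited 2 members were higher (Pold1 and Fen1) and 2 lower (Cdt1 and Orc3), against 6.87% and 10.4% of all genes. With median centring 2 were higher (Pold1 and Fen1) and 6 lower (Orc3, Cdc6, Cdt1, Mcm3, Gins4 and Pold2), 4.88% and 14.6% of the members, against 4.70% and 15.4% of all genes. Median centring moved the members' median change to -0.08 and that of all genes to -0.05. Cdt1 changed by -0.64 as deposited and -0.70 after median centring, Fen1 by 0.48 and 0.42, Pold1 by 0.30 and 0.24 and Orc3 by -0.22 and -0.28. Mcm6 was not called under either, at 0.20 (limma adjusted p = 0.0560) and 0.14 (limma adjusted p = 0.156).

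Lists of related genes are given beside the 17.0% of all genes that passed. Of 42 measured genes of a wider replication and S-phase list, 1 was higher and 2 lower (7.14% past the threshold), with a median change of -0.02. At an unadjusted limma p under 0.05, 5 were higher and 9 lower. Dnmt1, the maintenance DNA methyltransferase at the fork, was higher by 0.15, with all exercise arrays above all non-exercise arrays (limma adjusted p = 0.0408). Chtf18, a subunit of an alternative clamp loader, changed by -0.31 (limma adjusted p = 0.0116) and Timeless, of the fork protection complex, by -0.29 (limma adjusted p = 0.0351). The groups did not overlap for Chtf18 and overlapped for Timeless. Of 26 regulators of the G1 to S step, 2 were higher and 2 lower (15.4%, near the share of all genes), with a median of -0.01. The unadjusted limma p was under 0.05 for 5 higher and 5 lower. Cdk6, a kinase that acts with D-type cyclins, was higher by 0.23 (limma adjusted p = 0.0394) and E2f6, a repressor of the E2F family, by 0.23 (limma adjusted p = 0.047). Ccnd3, a D-type cyclin, changed by -0.28 (limma adjusted p = 0.00509), with all exercise arrays below all non-exercise arrays. Among the activating E2F factors, E2f2 changed by -0.27 (limma adjusted p = 0.0194), with all exercise arrays below all non-exercise arrays. E2f1 and E2f3 had changes of -0.04 and -0.05 (limma adjusted p = 0.778 and 0.645) and did not pass. At an unadjusted limma p under 0.05, 3 of 24 mitotic genes were higher and 0 lower, with a median change of 0.00 over the list. At the adjusted threshold 2 were higher and 0 lower (8.33% past the threshold). These were Prc1, which bundles microtubules in the central spindle (0.26, limma adjusted p = 0.00235), and Foxm1, a factor that drives mitotic genes (0.16, limma adjusted p = 0.0345). Mki67, the source of the Ki-67 proliferation marker, had a change of -0.02 (limma adjusted p = 0.871). An E2F-type string was held by 11 of 35 genes with a promoter in the wider replication list (31.4%) and 1 of 21 in the mitotic list (4.76%), against 41.2% of the members. CCAAT was held by 76.2% of the mitotic genes.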

How the data were processed

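Total RNA of each of 10 melanoma tumours was hybridised to 1 Affymetrix whole-transcript array, and samples were grouped by their titles. The authors deposited 1 value per probe set, summarised with PLIER per the submitters' processing notes, in a version that the sources used here do not give. The deposited values were taken as log2 from their range of 4.66 to 14.5; the log base, any added constant and any step between arrays are not stated. RNA was isolated with 1 of 2 kits per the labels' protocols, without naming the tumours, and batches by scan date or slide were not analysed. The number of arrays limits the precision.

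As array medians differed by 0.126, values were quantile normalised with limma 3.58.1 in R 4.3.3. The platform table gave 1 symbol for 21789 probe sets, several for 1621 and none for 12146; the first were kept, and their symbols were set against RefSeq's through Entrez identifiers (21698 matched, 0 changed). Where a gene had several (999 genes), the brightest on average stood for it. Genes were compared by two-sided limma tests (lmFit, then eBayes with an intensity trend) and Benjamini-Hochberg adjustment over 19938 genes at 0.05. Lists were described by counts and medians without a set test, and scores are means of centred values. The members and lists were chosen with earlier results of these data known.

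Every member may be named. Values in every array are given for called members and for the smallest and largest p in each role; from the pathway lists, up to 3 called genes in each direction, E2f1 to E2f3 and Mki67; of cell type markers, the defining genes. Gmnn and Dtl were added after the values of Cdt1 were seen. Some listed genes were not analysed here, and no promoter was matched for Prim2, Gins1, Gins2, Gins4, Mcm4, Pole and Rfc2. Alternatives were the deposited values, median centring, a filter on dim genes, other treatments of probe sets, robust eBayes or eBayes with no trend, array weights, 3 marker scores as covariates, an adjusted p under 0.10, and arrays left out. On 10 simulated copies of the exercise comparison (19938 genes, 200 of them changed), 70.9% of changes of 0.5 and 96.7% of changes of 1 were recovered by the code, with 7.8 false calls on average. The copies drew each gene independently and changed fewer genes than passed in the data. These rates check the code and need not hold for the real comparison. Figures used Python 3.11.15 and matplotlib 3.10.9.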

Additional observations from a re-analysis of the deposited data

Results flagged for a closer look

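Orc5, a subunit of the origin recognition complex, lay at 10.65 in exercise array 310, apart from the other 4 exercise arrays, of which the nearest was at 10.87. It was the only one of 82 groups of 5 values (41 genes in each condition) in which the lowest or highest array stood so far from the rest, and Dixon's 95% limit marks about 5% of groups by chance. The same array had the lowest average over the 41 replication genes (-0.17).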

How the results depend on the processing

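Over 22 other settings for each of 41 genes, no called change turned its sign. Of 902 values, 25 lost a call, 6 gained one and the others kept their side of the threshold; 11 of these others, all uncalled, moved by the replicate SD or more. Cdt1, Fen1 and Pold1 kept their calls in all settings but the leukocyte covariate, while Mcm6 and Orc3 also lost theirs under several others. With 5 arrays a group, uncalled changes are bounded only as their intervals show. Instead of 2 members lower there were 6 with median centring, and 1 with eBayes without the trend, with the hepatocyte covariate and without exercise arrays 306, 309 and 310. Over all genes, 2118 were lower in the main fit and 3076, 1883, 1443 and 1607 in these settings, in that order. Leaving out 1 array gave 1 to 2 members lower and 2 to 4 higher. Over all genes the single omissions gave 1435 to 2333 lower and 857 to 1528 higher. The leukocyte covariate left 0 members higher and 0 lower by limma (3 and 1 at an unadjusted p under 0.05), and over all genes 47 higher and 140 lower. All genes higher fell from 1266 to 607 with the hepatocyte covariate and to 746 without the 3 arrays, where fewer samples were fitted. The cause of the other shifts was not tested. No paired analysis was possible because the groups share no replicate number.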
